A study of Mus musculus with 8 samples.

Results

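The Wnt ligands, the Frizzled receptors with their LRP co-receptors, and the R-spondins were followed across 16 lists of acetylated chromatin from mouse small intestinal crypts. The 35 genes were chosen by name out of 21883 protein-coding genes, with loci from a RefSeq table of GRCm38.p6, the mm10 build. They are 19 Wnt ligands, 10 Frizzled receptors, the co-receptors Lrp5 and Lrp6, and 4 R-spondins. A gene counted as marked in a list if either end of its RefSeq span had a peak at most 1 kb away. Peaks in the gene body plus 50 kb on each side were also counted.

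Wnt ligands are secreted proteins that bind a Frizzled receptor and an LRP co-receptor and stabilise beta-catenin, which then works with TCF/LEF factors on DNA. R-spondins bind LGR receptors and keep Frizzled receptors on the cell surface by holding back the ligases Rnf43 and Znrf3. In the small intestine this pathway keeps crypt stem cells dividing. Wnt3, made by Paneth cells, together with Wnt6 and Wnt9b, is known as an epithelial ligand of the crypt, while Wnt2, Wnt2b, Wnt4, Wnt5a and Wnt5b and the R-spondins are known mainly from the mesenchyme below it. Acetylation of histone H3 at lysine 27 (H3K27ac) and lysine 9 (H3K9ac) marks active promoters, and H3K27ac also marks active enhancers.

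The marks were mapped by CUT&Tag, in which an antibody guides a transposase to marked chromatin. All mice were male C57BL/6J animals aged 9 weeks. They were fed (Fed) or fasted for 24 h (Fast), and either received the antibiotic tetracycline for 21 days (+Tetra) or did not (-Tetra). This gave Fed (-Tetra), Fast (-Tetra), Fed (+Tetra) and Fast (+Tetra) for each mark, 8 samples in all, and 2 peak lists per sample, here called 1 and 2. The labels do not say whether lists 1 and 2 came from different mice, whether mice were pooled, or how many cells were used, so the spread between lists may be technical. Crypts had been shaken off in HBSS with EDTA and dissociated with trypsin. The labels also name a mouse IgG beside H3K27ac and a rabbit IgG beside H3K9ac, and no IgG list was analysed here. In bulk crypts, a mark carried by fewer cells and a weaker mark in each cell cannot be told apart.

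The lists held 32392 to 68545 H3K27ac peaks and 17249 to 99050 H3K9ac peaks, and read depth is unknown. Peaks of the smallest width, 200 bp, were 17.2% of H3K9ac peaks in Fast 1 (-Tetra), 20.3% in Fast 1 (+Tetra) and 31.2% in Fast 2 (+Tetra), and 11.8% of H3K27ac peaks in Fast 1 (-Tetra). In each of the other 12 lists they made up at most 1.73%. Of 10 epithelial genes checked, among them Epcam, Cdh1 and Vil1, all were marked in every H3K27ac list, and 8 in every H3K9ac list, with Krt18 in 6 and Krt20 in 7. Of 12 mesenchymal genes, 10 were marked in no H3K27ac list, and Pdgfra, Col1a2, Dcn, Lum, Thy1 and Grem1 were marked in no list of either mark. The mesenchymal exceptions for H3K27ac were Des in 4 lists and Acta2 in 1. Immune genes were not absent, with H3K27ac at Cd79a in 8 lists and at Cd3e, Cd3g and Itgam in 6 each. Of 6 endothelial genes, Lyve1 had H3K27ac in all 8 lists and the others in none, and of 3 glial genes, S100b had it in 2.

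Promoter sequences help to show which starts were read. RefSeq starts were found for 23 of the 35 members, as 26 promoters of 300 bases from 250 before to 50 after the start, in the RefSeq table for GRCm38.p6. The ligands shown first had a peak over the start base in at least 1 list. They were taken in the order of the epithelial and stromal ligands, and each is printed on the strand of the gene with CG pairs in capitals. Wnt3 is at chr11:103773925-103774224 on the plus strand, and Wnt9b at chr11:103749772-103750071, Wnt2 at chr6:18030396-18030695 and Wnt2b at chr3:104961660-104961959 on the minus strand.
Wnt3: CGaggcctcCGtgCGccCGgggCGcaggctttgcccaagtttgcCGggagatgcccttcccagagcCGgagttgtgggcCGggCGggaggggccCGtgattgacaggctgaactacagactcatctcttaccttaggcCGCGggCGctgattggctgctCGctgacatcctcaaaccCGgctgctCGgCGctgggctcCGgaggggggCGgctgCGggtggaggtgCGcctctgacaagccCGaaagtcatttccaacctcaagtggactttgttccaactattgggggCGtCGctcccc
Wnt9b: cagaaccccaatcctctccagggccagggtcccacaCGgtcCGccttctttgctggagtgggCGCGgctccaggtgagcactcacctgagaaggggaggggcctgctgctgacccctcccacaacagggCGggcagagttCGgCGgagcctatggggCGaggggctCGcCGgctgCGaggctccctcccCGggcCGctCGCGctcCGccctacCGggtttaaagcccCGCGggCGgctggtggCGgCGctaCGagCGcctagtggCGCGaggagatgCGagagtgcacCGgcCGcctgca
Wnt2: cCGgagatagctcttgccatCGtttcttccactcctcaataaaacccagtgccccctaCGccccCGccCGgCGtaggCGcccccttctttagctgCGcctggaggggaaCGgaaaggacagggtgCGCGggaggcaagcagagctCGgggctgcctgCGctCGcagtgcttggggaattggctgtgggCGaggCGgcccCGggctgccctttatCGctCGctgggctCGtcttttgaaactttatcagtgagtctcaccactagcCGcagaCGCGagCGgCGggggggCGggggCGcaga
Wnt2b: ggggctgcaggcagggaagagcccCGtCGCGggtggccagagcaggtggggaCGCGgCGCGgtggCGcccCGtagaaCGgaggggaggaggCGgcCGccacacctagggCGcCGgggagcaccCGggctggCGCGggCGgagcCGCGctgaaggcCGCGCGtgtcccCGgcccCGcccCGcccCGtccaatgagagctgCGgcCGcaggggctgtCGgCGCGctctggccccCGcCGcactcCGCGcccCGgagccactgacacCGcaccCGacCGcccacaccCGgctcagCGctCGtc

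Wnt6 at chr1:74771642-74771941 and Wnt4 at chr4:137277385-137277684, both on the plus strand, are the first ligands in that order with no peak over the start base in any list. Fzd4 at chr7:89404116-89404415 (plus strand) and Fzd5 at chr1:64737701-64738000 (minus strand) are shown for comparison because both had a peak over the start in all 8 H3K27ac lists. They were chosen after their values were seen.
Wnt6: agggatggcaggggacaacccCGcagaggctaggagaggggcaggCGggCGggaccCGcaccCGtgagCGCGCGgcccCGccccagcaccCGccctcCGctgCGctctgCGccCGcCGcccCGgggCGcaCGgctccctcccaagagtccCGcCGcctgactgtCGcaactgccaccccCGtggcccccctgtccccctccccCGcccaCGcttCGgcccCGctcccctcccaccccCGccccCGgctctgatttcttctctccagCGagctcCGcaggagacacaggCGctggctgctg
Wnt4: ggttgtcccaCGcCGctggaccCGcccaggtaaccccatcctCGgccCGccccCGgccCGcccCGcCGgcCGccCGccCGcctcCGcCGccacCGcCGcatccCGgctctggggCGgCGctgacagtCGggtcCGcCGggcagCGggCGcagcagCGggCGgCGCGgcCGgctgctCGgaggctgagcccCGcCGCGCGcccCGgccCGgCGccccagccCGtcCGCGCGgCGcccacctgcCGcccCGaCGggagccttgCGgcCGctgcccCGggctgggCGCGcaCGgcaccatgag
Fzd4: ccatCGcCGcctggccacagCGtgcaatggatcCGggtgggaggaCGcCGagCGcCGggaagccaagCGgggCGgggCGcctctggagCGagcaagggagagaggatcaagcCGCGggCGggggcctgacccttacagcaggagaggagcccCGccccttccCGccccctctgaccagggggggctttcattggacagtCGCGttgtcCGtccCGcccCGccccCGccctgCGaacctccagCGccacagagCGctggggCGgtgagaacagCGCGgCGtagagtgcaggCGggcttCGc
Fzd5: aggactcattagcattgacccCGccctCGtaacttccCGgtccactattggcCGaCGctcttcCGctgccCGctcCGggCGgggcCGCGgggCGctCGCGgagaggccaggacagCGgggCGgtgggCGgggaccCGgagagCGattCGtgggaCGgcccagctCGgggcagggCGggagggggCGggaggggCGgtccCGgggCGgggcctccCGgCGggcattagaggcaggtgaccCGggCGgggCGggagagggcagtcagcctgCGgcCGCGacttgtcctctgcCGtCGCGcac

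The CG content of the ligand starts varied. The Wnt4 promoter, whose start base lay under no peak, holds 51 CG pairs, and the Wnt6 promoter 31, against 32 for Fzd4 and 38 for Fzd5. Other ligand starts with at most 2 marked lists of either mark ranged widely. Some held few, with 6 at Wnt8b, 10 at Wnt16 and 18 at Wnt10b. Others held many, with 42 at Wnt7a, 45 at Wnt3a and 58 at Wnt9a. The 26 member promoters held a median of 30 CG pairs (range 4 to 58), and the 32851 promoters of the table a median of 7 (interquartile range 3 to 20). Of 7640 starts of protein-coding genes with at least 20 CG pairs, 56.9% had H3K27ac within 1 kb in all 8 lists and 14.8% in no list. Of the 20 member starts of this kind, 2 had it in all 8 lists (Fzd4 and Fzd5) and 12 in none. For H3K9ac, 36.9% of all such starts and 1 of the 20 member starts (Fzd4) had a peak in all 8 lists, and 7.84% and 6 of 20 in none. The limit of 20 pairs, the upper quartile of the table, was set after the values were seen.

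Short motifs of factors active in the crypt epithelium were present in 4 members' promoters. The letters searched on both strands were CTTTGA for TCF/LEF, TTTATG for CDX and AGATAA for GATA factors. They occur in 16%, 11.9% and 11.2% of all promoters of the table, and in 3, 1 and 2 of the 26 member promoters. The TCF/LEF letters lie in Fzd1, Wnt11 and an internal start of Wnt5b, the CDX letters in the same Wnt5b promoter, and the GATA letters in Fzd1 and Wnt8b. That Wnt5b promoter, at chr6:119449337-119449636 on the minus strand, follows with the CDX letters (222 bases before the start) and the TCF/LEF letters (71 bases before) in capitals.
Wnt5b: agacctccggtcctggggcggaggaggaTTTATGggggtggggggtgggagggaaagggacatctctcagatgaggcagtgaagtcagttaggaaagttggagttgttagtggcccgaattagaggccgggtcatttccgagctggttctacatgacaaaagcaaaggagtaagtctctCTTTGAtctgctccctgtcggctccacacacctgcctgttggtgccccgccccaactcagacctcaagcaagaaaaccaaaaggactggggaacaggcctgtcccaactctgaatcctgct

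Receptors were marked in more lists than ligands or R-spondins. For H3K27ac, the 12 receptors and co-receptors were marked in a mean of 4.58 of 8 lists each, the 19 ligands in 0.895 and the 4 R-spondins in 0.0, against 3.81 for all genes. For H3K9ac the means were 4.83, 1.58 and 0.5, against 3.75 for all genes. Of the 35 members, 5 were marked with H3K27ac in all 8 lists (Wnt6, Fzd4, Fzd5, Fzd7 and Lrp6), against 33.6% of all genes, and 19 in no list, against 39.4%. For H3K9ac, 2 members were marked in all 8 lists (Fzd4 and Fzd5), against 21.1% of all genes, and 6 in none (Wnt1, Wnt2, Wnt3a, Wnt5b, Rspo1 and Rspo4), against 25.2%. These shares describe a set chosen by name and carry no test.

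**Figure D1:**
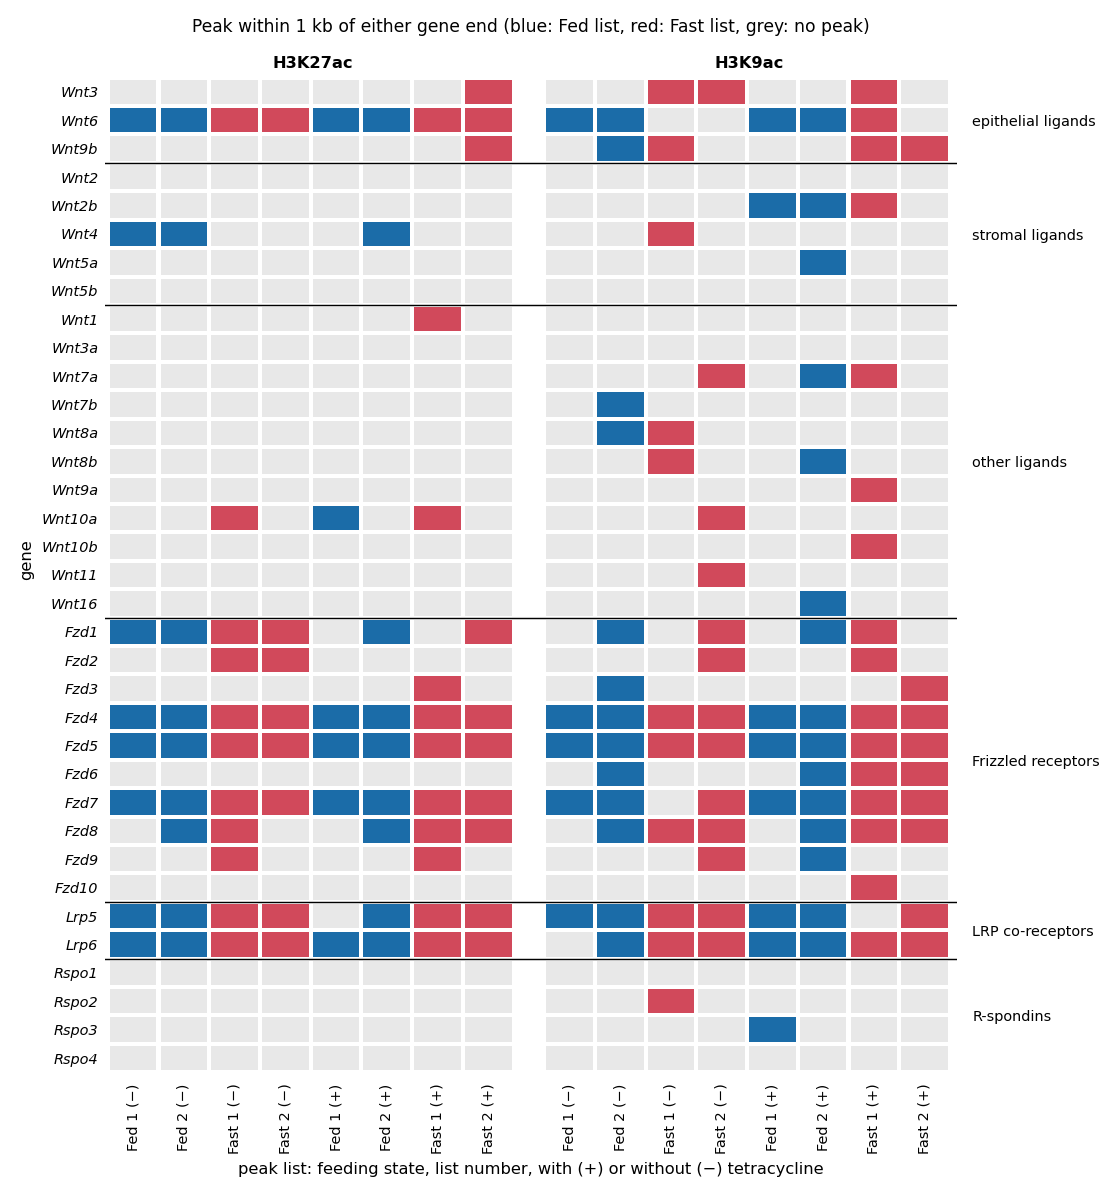
Marked gene ends of the 35 members (rows, grouped by role) in 16 peak lists (columns, by mark, feeding state, list number and tetracycline). Filled cells have a peak within 1 kb of either gene end: Fzd4 and Fzd5 are filled in all 16 lists, and Wnt2, Wnt3a, Wnt5b, Rspo1 and Rspo4 in none.

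**Figure D2:**
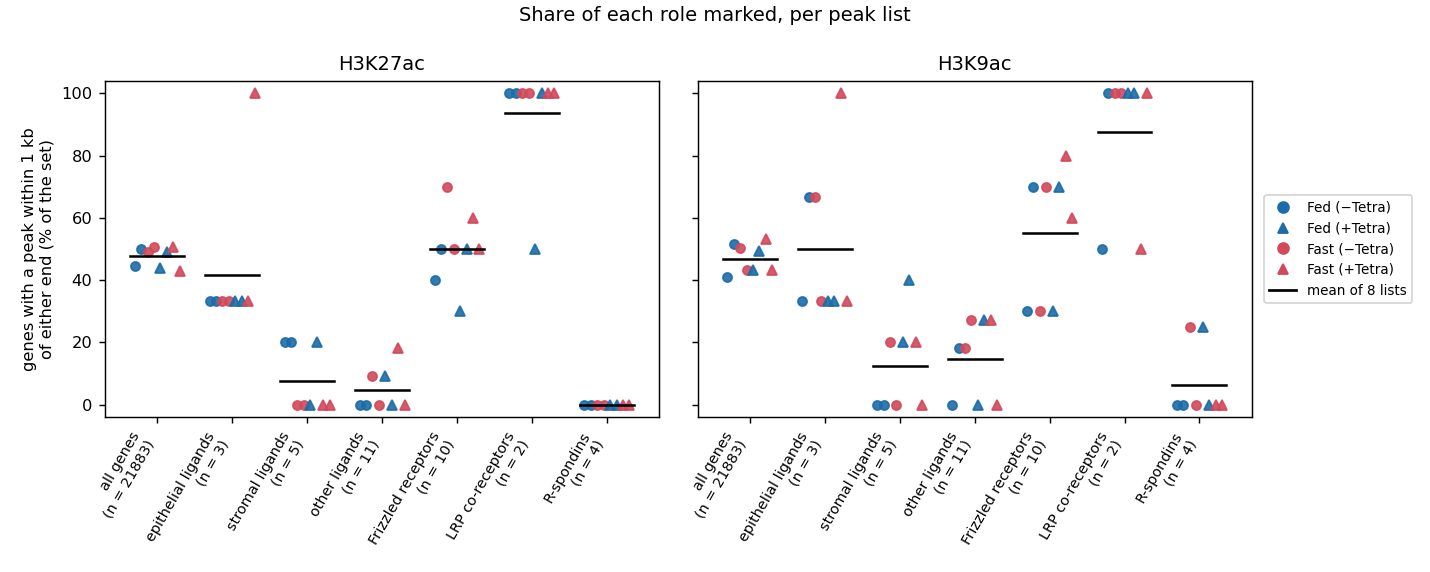
Share of each role marked (% of the genes of the set, vertical axis) in each peak list, with the 21883 protein-coding genes at the left of each panel. Points are lists, circles without and triangles with tetracycline, and lines are means of 8 lists; R-spondins are at 0 in all H3K27ac lists and stromal ligands lie below all genes in every list.

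Among the epithelial ligands, Wnt6 had the strongest acetylation. Its RefSeq span (chr1:74754342-74785322) begins 17550 bp before the start shown above. At that outer end lay a region, chr1:74753164-74755421, with an H3K27ac peak in all 8 lists. The score percentile of its peak, the rank of the authors' peak score within its list with 100 the highest, was 92.9 in Fed 1, 94.8 in Fed 2, 99.2 in Fast 1 and 98.3 in Fast 2 without tetracycline. With tetracycline it was 92.2, 97.2, 97.9 and 96.0 in the same order. All 8 lists therefore held it among their highest peaks, and Fed and Fast overlapped. H3K9ac was present there in 4 lists, both Fed lists of the -Tetra group and Fed 1 and Fast 1 of the +Tetra group. The other end of Wnt6 had H3K9ac in Fed 2 (+Tetra), so that 4 Fed lists and 1 Fast list had H3K9ac at an end. The inner start of Wnt6 had a peak within 1 kb in 1 H3K27ac list, Fed 1 (+Tetra), and 1 H3K9ac list, Fast 1 (-Tetra).

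Wnt3, the ligand of Paneth cells, was marked at its start (chr11, position 103774175) in Fast lists alone. The H3K9ac peak was found in Fast 1 (-Tetra), Fast 2 (-Tetra) and Fast 1 (+Tetra), at score percentiles 25.9, 28.6 and 27.7, and in none of the 4 Fed lists. H3K27ac was found in Fast 2 (+Tetra), at percentile 6.21. These are low-ranking peaks, and 1 member with H3K9ac in at least 3 Fast and no Fed lists stands against 0.708% of all genes. With a window of 2.5 kb, Wnt3 had H3K9ac in 3 Fast and 2 Fed lists, and among peaks at or above the median score of each list it had none. Of the other Paneth genes checked, Lyz1 was marked in 2 Fed and 2 Fast lists of each mark, Mmp7 with H3K27ac in 2 Fast lists and H3K9ac in 1 Fed list, Ang4 with H3K9ac in 1 Fast list, and Itln1 in no list. The part of Paneth cell number in the Wnt3 calls was not tested.

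Wnt9b shares ground with Wnt3: the upper end of its span (chr11:103727362-103775272) lies 1097 bp from the Wnt3 start. Its H3K27ac call, in Fast 2 (+Tetra), and 2 of its H3K9ac calls, in Fast 1 (-Tetra) and Fast 1 (+Tetra), came from that end in lists where the Wnt3 start was marked too. Its H3K9ac calls were Fed 2 (-Tetra), Fast 1 (-Tetra), Fast 1 (+Tetra) and Fast 2 (+Tetra). Its RefSeq start, 25451 bp inside the span, had H3K27ac within 1 kb in Fed 2 (+Tetra), and H3K9ac in Fast 2 (-Tetra), Fed 1 (+Tetra) and Fast 1 (+Tetra). No end of Wnt9b was marked in more than 3 lists of a mark. Regions inside Wnt9b, chr11:103734808-103736196, and inside Wnt3, chr11:103814363-103815700, had H3K27ac in all 8 lists, at median score percentiles of 72.6 and 63.0.

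Among the stromal ligands, Wnt4 was the only one with H3K27ac at a gene end, and it had it in Fed lists. The peaks lay within 1 kb of the start (chr4, position 137277635) in Fed 1 (-Tetra), Fed 2 (-Tetra) and Fed 2 (+Tetra), at score percentiles 11.9, 18.0 and 32.4. No Fast list had one. This is 1 member with H3K27ac in at least 3 Fed and no Fast lists, against 0.0868% of all genes. No member did so for H3K9ac, against 0.201%, and no member had H3K27ac in at least 3 Fast and no Fed lists, against 0.48%. None of the 3 Wnt4 peaks covered the start base, and none reached the median score of its list. Fast 1 (-Tetra) had H3K9ac at its other end.

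At their ends, the other stromal ligands had H3K9ac at best. Wnt2b had it at its start in Fed 1, Fed 2 and Fast 1 of the +Tetra group, at percentiles 26.2, 2.74 and 42.8, and in no -Tetra list. Wnt5a (chr14:28504543-28527448) had it in Fed 2 (+Tetra), 1 of 16 lists. Wnt2 had no marked end, and a peak within 1 kb of its inner start in 1 H3K9ac list, Fast 1 (-Tetra). Wnt5b (chr6:119432531-119544824) had no marked end in any list, although its internal starts were marked. The start at position 119467211 had H3K27ac within 1 kb in 7 lists and H3K9ac in 3, and the start at 119449386, printed above, had H3K27ac in 1 and H3K9ac in 5. Another gene, Fbxl14, lies within the Wnt5b span.

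The contrast of epithelial with stromal ligands therefore depends on which end is read. Counting either end, an epithelial ligand was marked in 2.73 more H3K27ac lists of 8 than a stromal ligand (means 3.33 and 0.6) and in 3.0 more H3K9ac lists (4.0 and 1.0). Counting RefSeq starts, the differences were -1.5 (means 1.0 and 2.5) and -0.167 (2.33 and 2.5). The outer end of Wnt6 is then not read, the internal starts of Wnt5b are, and Wnt5a, which has no listed start, drops out of the stromal mean. With Wnt5a kept by its ends, a setting added after the values were seen, the differences were -1.0 and 0.133, so the direction for H3K9ac rests on whether Wnt5a is counted. Wnt6 alone gave 8 of the 10 H3K27ac calls of the epithelial ligands.

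In the wider windows, Wnt2, Wnt2b, Wnt4 and Wnt5a had few H3K27ac peaks. In body plus 50 kb, Wnt6 had 5, 6, 17 and 9 H3K27ac peaks in Fed 1, Fed 2, Fast 1 and Fast 2 without tetracycline, and 6, 9, 11 and 8 with it. Wnt3 had 2, 4, 9 and 5, then 2, 5, 5 and 4. Wnt9b had 9, 12, 11 and 12, then 9, 13, 9 and 9. All 3 ranges overlapped between Fed and Fast. Wnt2 had 0 H3K27ac peaks in 7 lists and 4 in Fast 1 (-Tetra), Wnt2b 0 to 2, Wnt4 0 to 4 and Wnt5a 1 to 3. Wnt5b had 13 to 28 in a window of 212294 bp, the largest of the 8, which also holds Fbxl14.

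**Figure D3:**
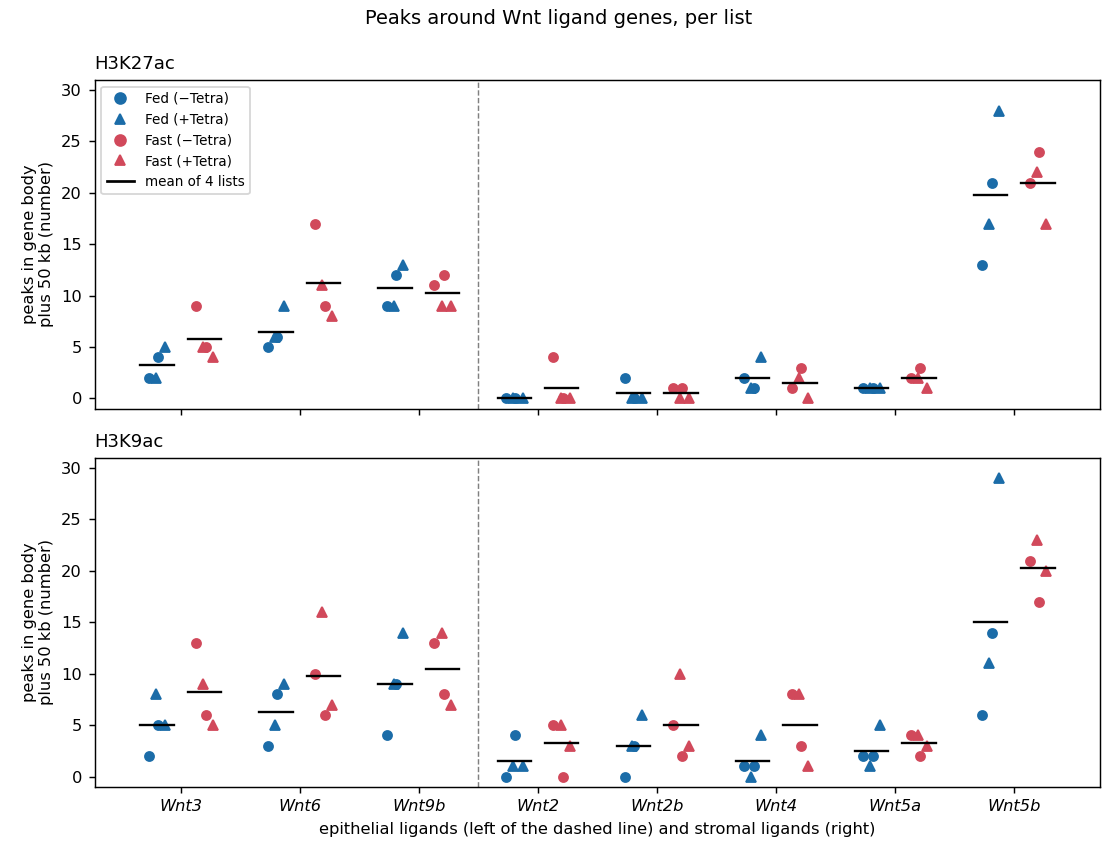
Number of peaks in gene body plus 50 kb (vertical axis) for the 3 epithelial and 5 stromal ligands, per list, with Fed in blue, Fast in red, triangles for tetracycline and lines for means of 4 lists. Fed and Fast points overlap for every gene in both marks; Wnt2, Wnt2b, Wnt4 and Wnt5a stay at or below 4 H3K27ac peaks and Wnt5b lies between 13 and 28.

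Wnt5a had 1 constant region all the same. At chr14:28541777-28543182, 14329 bp beyond its upper end and with Wnt5a as the nearest gene, H3K27ac was found in all 8 lists. Its score percentile was 96.9, 98.1, 93.5 and 93.7 in Fed 1, Fed 2, Fast 1 and Fast 2 without tetracycline and 98.9, 97.2, 97.0 and 88.6 with it. The region is strong in every list while both ends of the gene carried no H3K27ac peak.

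The remaining 11 ligands, placed in neither group, had few H3K27ac peaks at their ends. Wnt10a had it in 3 lists, Fast 1 (-Tetra), Fed 1 (+Tetra) and Fast 1 (+Tetra), and Wnt1 in Fast 1 (+Tetra). The other 9 had it in none. H3K9ac came in single lists for Wnt7b (Fed 2, -Tetra), Wnt9a and Wnt10b (Fast 1, +Tetra), Wnt10a and Wnt11 (Fast 2, -Tetra) and Wnt16 (Fed 2, +Tetra). Wnt8a had it in Fed 2 and Fast 1 (-Tetra), Wnt8b in Fast 1 (-Tetra) and Fed 2 (+Tetra), and Wnt7a in Fast 2 (-Tetra), Fed 2 (+Tetra) and Fast 1 (+Tetra). Wnt3a was marked in no list. No list of either mark held more than 3 of the 11. Their wider windows were not empty: in body plus 50 kb, Wnt16 had 6 to 13 H3K27ac peaks per list, Wnt3a 6 to 12 and Wnt8a 5 to 12.

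Of the Frizzled receptors, Fzd4, Fzd5 and Fzd7 were marked nearly throughout. Fzd4 had a peak over its start in all 16 lists. The H3K27ac region there, chr7:89403155-89405339, had score percentiles 67.4, 90, 91.3 and 86.4 in Fed 1, Fed 2, Fast 1 and Fast 2 without tetracycline and 88.3, 80.5, 91.5 and 50.7 with it. The H3K9ac region, chr7:89403014-89405556, had percentiles 68.7, 92.5, 98.8 and 95.0, then 90.4, 94.7, 99 and 90.2. The start of Tmem135 lies 144 bp away, so these peaks cannot be given to Fzd4 alone. A second region, chr7:89410161-89412671, at the far end of Fzd4, had H3K27ac in all 8 lists.

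Fzd5, a receptor of the crypt epithelium, started in a wide H3K27ac region with a median score percentile of 96.2, against 87.4 for that at the Fzd4 start. This region, chr1:64734558-64740030, had percentiles 98.5, 95.1, 99.3 and 98.3 in Fed 1, Fed 2, Fast 1 and Fast 2 without tetracycline and 95.2, 97.2, 92.6 and 91.2 with it. H3K9ac covered the Fzd5 start in 6 lists and was absent within 1 kb of it in Fast 1 and Fast 2 (+Tetra), where the lower end was marked. A further region, chr1:64742245-64743963, upstream of the start, had H3K27ac in all 8 lists at percentiles of 78.8 to 96.0. Fed and Fast overlapped at both regions.

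Fzd7, a receptor of crypt stem cells, had H3K27ac at an end in all 8 lists, at percentiles between 5.15 in Fast 2 (+Tetra) and 87.2 in Fast 1 (-Tetra). Its start was marked in 7 of them, all but Fast 2 (+Tetra). H3K9ac was at an end of Fzd7 in every list except Fast 1 (-Tetra). Fzd1 had H3K27ac at its start in all 4 -Tetra lists and in Fed 2 and Fast 2 (+Tetra), and H3K9ac in Fed 2 and Fast 2 (-Tetra) and Fed 2 and Fast 1 (+Tetra). Fzd8 had H3K27ac in Fed 2 and Fast 1 (-Tetra) and in Fed 2, Fast 1 and Fast 2 (+Tetra), and H3K9ac in 6 lists, every list except Fed 1 of each tetracycline group. The Fed 1 lists are the smallest lists of H3K9ac, with 17249 and 24643 peaks.

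The other 5 Frizzled receptors had peaks at a gene end in at most 4 lists of a mark. Fzd6 had no H3K27ac peak anywhere in body plus 50 kb in any list, and H3K9ac at its lower end in Fed 2 (-Tetra), Fed 2, Fast 1 and Fast 2 (+Tetra). At its ends, Fzd2 was marked in Fast lists: H3K27ac in Fast 1 and Fast 2 (-Tetra), H3K9ac in Fast 2 (-Tetra) and Fast 1 (+Tetra), while its body plus 50 kb held 5 to 10 H3K27ac peaks in every list. Fzd9 had H3K27ac in Fast 1 of each tetracycline group and H3K9ac in Fast 2 (-Tetra) and Fed 2 (+Tetra). Fzd3 had H3K27ac in Fast 1 (+Tetra) and H3K9ac in Fed 2 (-Tetra) and Fast 2 (+Tetra). Fzd10 had H3K9ac in Fast 1 (+Tetra).

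**Figure D4:**
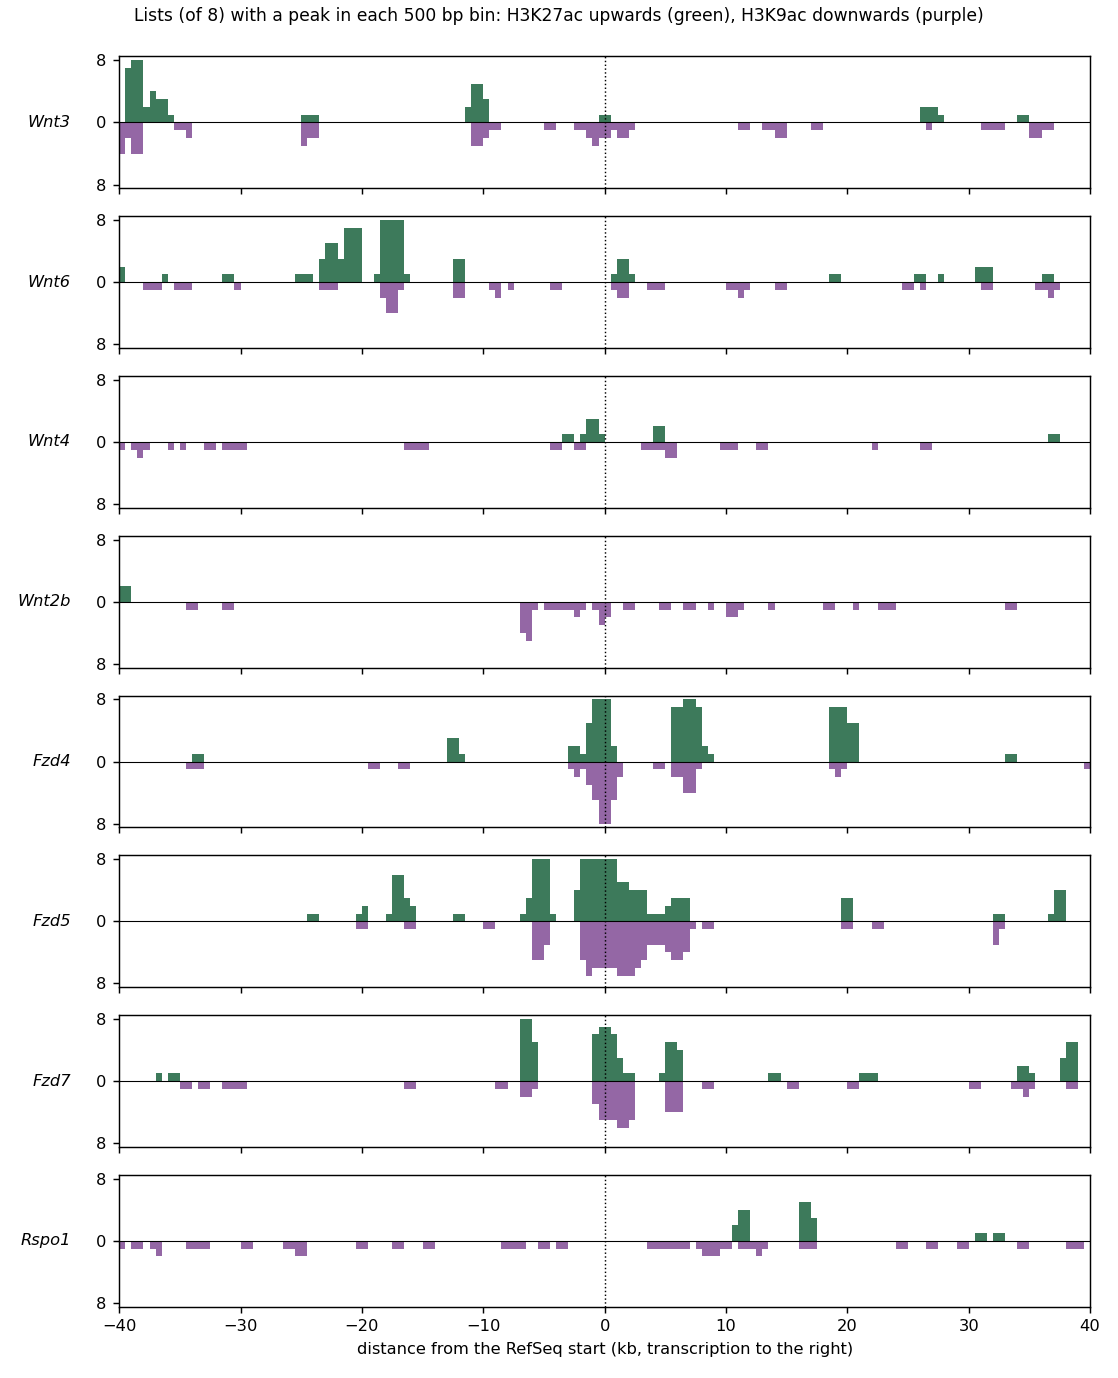
Number of lists out of 8 with a peak in each 500 bp bin (vertical axis, H3K27ac upwards and H3K9ac downwards) against distance from the RefSeq start in kb for 8 members. Fzd4 reaches 8 lists at the start for both marks, Wnt6 has its 8 H3K27ac lists upstream of the start, and Rspo1 has no peak at the start.

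The LRP co-receptors had the most regular marks of all roles. Lrp6 had H3K27ac in all 8 lists, at percentiles of 25 to 77.3, and H3K9ac in all but Fed 1 (-Tetra). Lrp5 had H3K27ac in all but Fed 1 (+Tetra), at percentiles of 31.4 to 87.6, and H3K9ac in all but Fast 1 (+Tetra). Inside Lrp5 (chr19:3584825-3686585) lay a run of regions. Of 10 regions with H3K27ac in all 8 lists in its window, 8 had Lrp5 as the nearest gene. The strongest, chr19:3630585-3634260, had percentiles 98.9, 98.1, 99.2 and 98.3 without and 98.4, 97.2, 98.6 and 94.9 with tetracycline, and an H3K9ac peak in 3 lists.

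R-spondins were not marked with H3K27ac in any list. Rspo1, a growth factor for the crypt epithelium, and Rspo4 carried neither mark at an end, Rspo2 had H3K9ac in Fast 1 (-Tetra) and Rspo3 in Fed 1 (+Tetra). In body plus 50 kb, Rspo2 and Rspo3 had 0 H3K27ac peaks in 7 of 8 lists and 1 in the other, Fast 1 (+Tetra) for Rspo2 and Fast 1 (-Tetra) for Rspo3. Rspo4 had 2 in Fast 1 (+Tetra) and 0 elsewhere. Rspo1 had 1 to 5 H3K27ac peaks, and its constant region, chr4:125029429-125030702, lies at an end of Gnl2.

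Counted at the ends of the spans, the pattern of both marks split the members. Neither mark was found at either end of 5 members, Wnt2, Wnt3a, Wnt5b, Rspo1 and Rspo4, 14.3% against 22.4% of all genes. H3K9ac without any H3K27ac was found at 14 members, 40% against 16.9% of all genes, and H3K27ac without H3K9ac at Wnt1, 2.86% against 2.79%. For H3K9ac, 11 members (31.4%) were marked in exactly 1 list, against 14.5% of all genes. Peaks of members marked in 1 to 3 lists ranked low and were narrow, with a median score percentile of 15.8 and width of 526 bp for H3K27ac (8 members) and 28.1 and 492 bp for H3K9ac (19 members). Peaks of members marked in 6 to 8 lists had medians of 80.5 and 1770 bp (7 members) and 88.6 and 1460 bp (6 members).

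**Figure D5:**
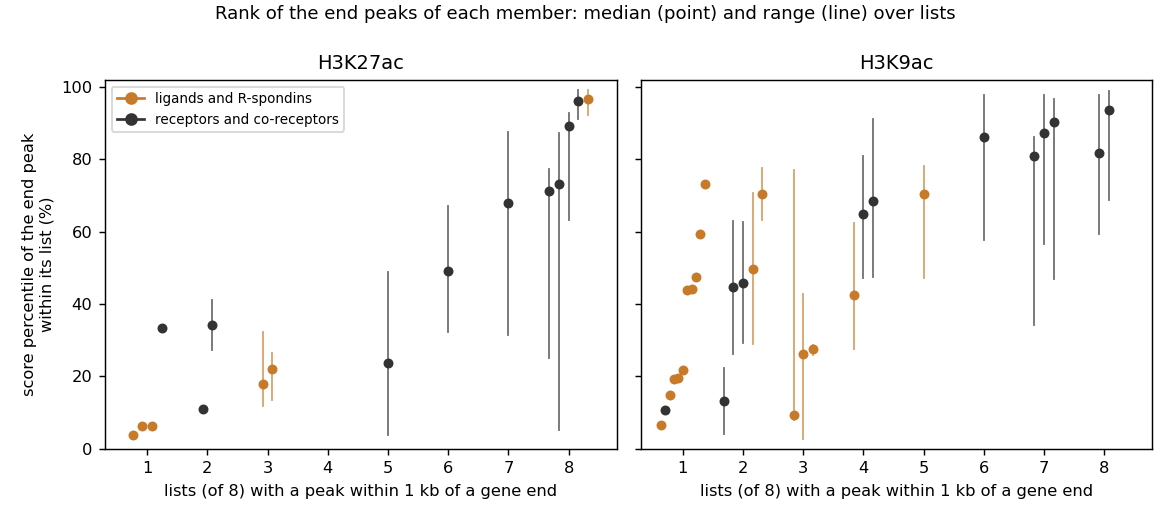
Score percentile of the end peak within its list (vertical axis, %; point for the median and line for the range over marked lists) against the number of lists marked, per member, with ligands and R-spondins in orange and receptors in dark grey. Members marked in 8 H3K27ac lists have medians of 71.2 to 96.6, and those marked in 1 to 3 lists lie at or below 34.2.

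The regions around the members were set beside all regions of a mark. Overlapping peaks of a mark's 8 lists were merged, which gave 330 H3K27ac regions within body plus 50 kb of a member, 60 of them (18.2%) in all 8 lists and 168 (50.9%) in 1 list, against 14.6% and 53.1% of all H3K27ac regions. H3K9ac gave 820 regions, 11 (1.34%) in all 8 lists and 634 (77.3%) in 1, against 1.52% and 84.4%. At least 1 constant H3K27ac region lay near 20 of the 35 members, against 63.9% of all genes, and a constant H3K9ac region near 9, against 44.8%. Of the 60, 26 had a member as nearest gene, and 17 lay at the end of a gene that is no member. For several members the constant H3K27ac region of highest median score had another gene as its nearest: Plekhm3 for Fzd5 (median percentile 98.2), Fam3c for Wnt16 (98.4), Gpatch8 for Fzd2 (97.7), Adipor2 for Wnt5b (92.7), Bcl2l14 for Lrp6 (94.3) and Gosr2 for Wnt9b (88.5). All 60 had an H3K9ac peak in at least 1 list, 9 of them in all 8.

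At the gene ends, no member followed the feeding state in all 8 lists of a mark. The number of members marked with H3K27ac was 8, 9, 11 and 8 in Fed 1, Fed 2, Fast 1 and Fast 2 without tetracycline and 6, 9, 11 and 10 with it. The Fast mean exceeded the Fed mean by 2.0 members (10 against 8.0, pooled SD within groups 1.58, 4 lists each). For H3K9ac the counts were 5, 13, 11 and 13, then 8, 15, 16 and 9, a difference of 2.0 (12.2 against 10.2, SD 4.56). Both ranges overlapped. Over all genes, the mean share marked was 46.9% in Fed and 48.4% in Fast lists for H3K27ac, and 46.4% and 47.5% for H3K9ac. With the same number of top-scoring peaks taken from every list the differences were -0.75 and -2.75, so their direction depended on which peaks were taken. No member was marked in all 4 Fast and no Fed lists, or the reverse. Over all genes the Fast pattern was seen at 0.096% for H3K27ac and 0.0777% for H3K9ac, and the Fed pattern at 0.0137% and 0.0411%. Of the 7 immune genes, 2 to 5 had H3K27ac in a Fed list and 4 to 6 in a Fast list, with Ptprc in all 4 Fast and no Fed lists, and their part in these counts was not tested. Of the 12 mesenchymal genes, 0 or 1 had it in any list.

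Peak numbers around the members were tested by exact permutation of Fed and Fast within each tetracycline state (36 arrangements, two-sided, smallest possible p = 0.056), with Benjamini-Hochberg adjustment over all genes. A gene reaches that p when each Fast list exceeds both Fed lists in both states, or the reverse. For H3K27ac, Fzd10 did so upwards, 1 of 35 members against 3.68% of all genes, and no member did so downwards, against 0.146%. Fzd10 had 0 peaks in all 4 Fed lists and 1, 1, 2 and 1 in the Fast lists. For H3K9ac, Lrp5, Rspo2 and Rspo4 did so upwards, 3 of 35 against 5.22%, and none downwards, against 0.00457%. The adjusted p of this permutation test was 1.0 for Fzd10 and 0.733 for the other 3. No gene could pass 0.05 in this design, whatever its values.

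Lrp5 had 5, 16, 25 and 17 H3K9ac peaks in Fed 1, Fed 2, Fast 1 and Fast 2 without tetracycline and 10, 13, 26 and 14 with it, a Fast mean higher by 9.5. Rspo4 had 0, 3, 9 and 5, then 0, 3, 6 and 4, higher by 4.5. Rspo2 had 0, 1, 4 and 2, then 0, 1, 4 and 3, higher by 2.75. List size differed too: the H3K9ac lists Fast 1 held 99050 and 97764 peaks and Fast 2 held 35889 and 53313, against 17249 and 24643 in Fed 1 and 51552 and 54158 in Fed 2. In list 2, the Fast values without and with tetracycline were 17 and 14 against 16 and 13 in Fed for Lrp5. For Rspo4 they were 5 and 4 against 3 and 3, and for Rspo2 2 and 3 against 1 and 1. With the same number of top-scoring peaks taken from every list, 0 members had more H3K9ac peaks in Fast at the smallest p. The part of list size in these calls was not tested. Per 10000 peaks of a list, member windows held 32.5 to 40.4 H3K27ac and 28.9 to 45.0 H3K9ac peaks, with a peak in the windows of neighbouring members counted in each. The log2 ratio of Fast over Fed was -0.05 (SD 0.157) for H3K27ac and -0.20 (SD 0.212) for H3K9ac.

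The regions that followed the feeding state were few. Near Wnt8a, at chr18:34535308-34536315 and 6012 bp from the gene, H3K27ac was found in all 4 Fast and no Fed lists. Its percentiles were 68.0 and 29.1 in Fast 1 and Fast 2 without and 21.1 and 6.34 with tetracycline, so these were mostly low-ranking peaks. It was 1 of 330 H3K27ac regions around members, and no region had the opposite pattern. Over the genome 449 of 112301 H3K27ac regions were in all Fast and no Fed lists.

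No member followed tetracycline in all 8 lists of a mark either. The mean number of members with H3K27ac was 9.0 without and 9.0 with it, and with H3K9ac 10.5 and 12.0, a difference of 1.5 (SD 4.56). No member was marked in all 4 tetracycline lists and none of the others, against 0.00457% of all genes for H3K27ac and 0.0457% for H3K9ac, nor the reverse, against 0.096% and 0.0411%. By permutation within feeding states, no member had more H3K27ac peaks with tetracycline at the smallest p, against 0.0548% of genes, or fewer, against 2.05%. For H3K9ac the shares were 0.379% and 0.032% of genes, and again no member. Wnt2b came nearest, with H3K9ac at its start in 3 +Tetra and no -Tetra lists, at score percentiles of 26.2, 2.74 and 42.8. The share of all genes with at least 3 +Tetra and no -Tetra lists was not counted. An H3K9ac region 27856 bp from Wnt16 (chr6:22326378-22327683) was in all 4 +Tetra and no -Tetra lists, with Fam3c as its nearest gene. It was 1 of 820 H3K9ac regions around members, at a median score percentile of 51.4. The same place had an H3K27ac peak in all 8 lists. The number of H3K9ac regions with this pattern over the genome was not counted.

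Other genes of the pathway were mixed, with the secretion and receptor-regulating genes marked in most lists and the secreted inhibitors in few. Porcn, which acylates Wnt proteins, was marked in all 16 lists. Wls, which carries them to the cell surface, had H3K27ac in all 4 -Tetra and no +Tetra lists, and H3K9ac in 4 and 2. Cd44, a target gene, had the same H3K27ac pattern, and both were singled out after their values were seen. Over all genes, 0.096% had this H3K27ac pattern. The part of tetracycline in these calls was not tested. The R-spondin receptor Lgr4 and the ligase Rnf43 were marked in all 16 lists, and Znrf3 in all but 1, while the stem cell receptor Lgr5 had H3K27ac in 1 and H3K9ac in 2 lists, all Fast. Of 11 secreted inhibitors, 9 were in no H3K27ac list, with Dkk4 in 6 lists and Sfrp4 in 1. The H3K9ac list Fast 1 (+Tetra) marked 7 of these inhibitors and 5 of the 12 mesenchymal genes, and the other lists 0 to 3 and 0 to 2.

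Of 16 transduction genes, 10 had H3K27ac in all 8 lists, among them Ctnnb1, which encodes beta-catenin, Apc and Tcf7l2, and 3 had none, Axin1, Tcf7l1 and Lef1. Of 9 target genes, Sp5, Ephb2 and Ephb3 had H3K27ac in all 8 lists. Pathway genes whose number of marked lists differed between Fast and Fed by at least 3 were Tnfrsf19, Ascl2 and Tcf7l1. Tnfrsf19 had H3K27ac in 4 Fast and no Fed lists, and Ascl2, a stem cell transcription factor, in 3 and none. Tcf7l1 had H3K9ac in 3 and none. Over all genes, at least 3 Fast and no Fed lists were marked at 0.48% for H3K27ac and 0.708% for H3K9ac. The reverse was seen at 0.0868% and 0.201%. The calls of these pathway genes were not recomputed with other settings. More Fast than Fed lists with H3K27ac were seen at 9 of the 35 members and fewer at 1, against 2894 and 2066 of 21883 genes. With H3K9ac these counts were 13 and 8 of the 35 members, against 5209 and 4525 of 21883 genes. The difference in members marked per list did not keep its direction with the top-scoring peaks, as given above.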

How the data were processed

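The 16 deposited peak lists (2 per sample, 8 samples) give a chromosome, start, end, name and score per peak. The authors called peaks with MACS in each list, per the file names and peak names, and the deposited score comes without a unit. No score was below 50. FastQC, Bowtie, SAMtools and the build mm10 are named in the submitters' processing notes, without versions. The lists are named as downsampled, and read depth is not given in the sources used here. Peaks on chromosomes 1 to 19, X and Y were used. Genes were 21883 protein-coding genes of RefSeq (GRCm38.p6). The span of a gene covers all its models, so its ends can lie far from a listed start, and starts were listed for 23 of the 35 members.

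The members and gene lists were chosen with earlier results of these data known. All 35 members are described by role, list by list where marked in some lists. Regions named had a peak in all 8 lists of a mark, or in all 4 of a state and no other. Numbers of peaks were compared by an exact permutation test, in Python 3.11.15 with numpy 2.4.6 and pandas 2.3.3. Its code was also run on simulated data. Planted genes there had more peaks in every Fast list than in any Fed list, so that run checked the code alone. Counts over members carry no test. Alternatives were other windows and flanks, other sets of peaks and leaving out a list number.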

Additional observations from a re-analysis of the deposited data

How the results depend on the processing

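Of 84 values recomputed with both list numbers kept, 52 stayed close to the reported value, 19 moved and 13 reversed. The cause was not tested. Close means a shift below the pooled SD within groups, which was 4.56 for members marked with H3K9ac, or a limited fold change of a count. Fast minus Fed in members marked thus counted as close at 4.75 for H3K9ac with a window of 2.5 kb, against 2.0 reported. So did 0.5 for H3K27ac with peaks at least 500 bp wide, against 2.0. A reported difference of 0.0, as for tetracycline and H3K27ac, could not be called reversed. With all lists of a mark trimmed to the size of the smallest by score, Fast minus Fed in members marked was -0.75 for H3K27ac and -2.75 for H3K9ac, with minus without tetracycline was -0.75 for H3K9ac, and H3K27ac minus H3K9ac was 1.25. Members with H3K9ac in all 8 lists numbered 1, epithelial minus stromal for H3K9ac was 1.0, and the members with more peaks in Fast were 0 for H3K27ac and 0 for H3K9ac. With the peaks at or above the median score of each list, Fast minus Fed was -0.25 and -0.5, the tetracycline difference for H3K9ac was -0.5, members with H3K27ac in all 8 lists numbered 3, epithelial minus stromal for H3K9ac was 2.0, and 1 member had more H3K9ac peaks in Fast. With peaks at least 500 bp wide, 1 member had H3K9ac in all 8 lists, and 0 members had more peaks in Fast for either mark. With the centre of the peak in the window, 1 member had H3K9ac in all 8 lists and epithelial minus stromal was 2.33. A window of 2.5 kb gave 2.2 for the latter. With starts alone, Fast minus Fed for H3K27ac was -0.5, members in all 8 lists numbered 2 and 1, and epithelial minus stromal was -1.5 and -0.167. With the ends of members that have no listed start added, a setting chosen after seeing the data, the latter were -1.0 and 0.133. The log2 Fast over Fed of window peaks was 0.071 for H3K27ac with a flank of 20 kb, and 0.114 and 0.0687 for H3K27ac and H3K9ac with peaks nearest to the member. Members with more H3K27ac peaks in Fast numbered 3 with 100 kb and 2 with nearest peaks, and those with more H3K9ac peaks 0 with 20 kb and 0 with 100 kb. The share of all genes called was not counted in any of these alternatives, so the counts have no background beside them.

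Leaving out list number 1 or 2 gave Fast minus Fed of 0.0 to 4.0 members for H3K27ac and -3.0 to 7.0 for H3K9ac, and tetracycline differences of -1.0 to 1.0 and -1.0 to 4.0. It gave 5 to 7 and 2 to 6 members in all lists left, epithelial minus stromal of 2.27 to 3.2 and 2.53 to 3.47, H3K27ac minus H3K9ac of -3.5 to -1.0, and log2 Fast over Fed of -0.084 to -0.0283 and -0.412 to -0.00295. Members with more peaks in Fast numbered 2 to 20 and 4 to 30, with 1 list per state left. The higher of these counts for each mark came from list 1 alone. There the H3K9ac lists held 99050 and 97764 peaks in Fast, against 17249 and 24643 in Fed. The part of list size in these counts was not tested. The share of all genes called in this way was not counted, so the counts cannot be set against a background. With the list number as a replicate block, the counts of members with more peaks in Fast were 1 for H3K27ac and 4 for H3K9ac. The numbers are taken from the file names and the labels do not say that they pair samples. Read depth is unknown, so a missing peak cannot be told from a shallow list.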
